A study of Mus musculus with 38 samples.

Results

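The FOS genes Fos, Fosb, Fosl1 and Fosl2, the JUN genes Jun, Junb and Jund, and the immediate early genes Atf3, Egr1 and Ier2 were followed across cell lines, tumours and kidneys of mouse models of kidney cancer. These 10 genes were chosen by symbol from the 21705 rows of an RNAseq table, with earlier results of these data known but by no measured value, and all 10 were measured in 38 libraries that fall into 10 groups. MYC, VM and VIM tumours have 3 libraries each and normal kidney has 5. The MYC-2983, VM-3055 and VIM-3039 lines, grown from such tumours, have 4 libraries each from cells maintained on 2 µg per ml doxycycline (Dox) and 4 from cells after Dox withdrawal, with RNA taken 24 h after plating. The MYC genotype (MYC+) carries a Myc transgene under a tetracycline operator, which needs Dox and the transactivator rtTA, made in renal tubule cells from the Ksp cadherin promoter. VM mice (Vhl-/-; MYC +) also lose a floxed Vhl in those cells through the tamoxifen-induced KspCre ERT2. VIM mice (Vhl-/-; MYC +; Ink-/-/Arf-/-) further lack Ink4a/Arf in the germline. MYC mice received Dox chow from 8 weeks of age, and the normal kidneys came from wild type mice given vehicle. Each genotype is represented by 1 line, so lines and not genotypes are compared. The 3 MYC tumour libraries come from 2 animals, and the numbers 2983 and 3055 of a MYC and a VM tumour animal are also those of lines. Whether the 4 libraries of a cell group came from separate cultures is not stated, so their p-values measure only the spread between these libraries.

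AP-1 is a dimer of basic leucine zipper proteins. JUN proteins pair with each other or with FOS proteins, whereas FOS proteins need a JUN partner, and the dimer binds the TPA response element, which reads TGANTCA. Many of these genes are immediate early genes: their transcription starts within minutes of a growth factor or a stress through kinases that act on factors already bound at the promoter, and their messages decay quickly. Fos and Fosb carry strong activation domains, Fosl1 (FRA-1) and Fosl2 (FRA-2) lack them, Junb and Jund activate less strongly than Jun in many settings, Atf3 is a stress-induced factor that often represses, Egr1 is a zinc finger factor that binds GCGNGGGCG, and Ier2 is a short-lived nuclear protein. In kidney these genes are known for their response to injury and reperfusion.

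Since several members moved together, the 250 bases before their starts were read from RefSeq windows of the GRCm38.p6 assembly, which held 7 of the 10 members. Fos, Fosl2, Jun and Atf3 are shown because the results turn on them. Capitals mark the core of the cyclic AMP response element (TGACGT, or ACGTCA where it lies on the other strand) in Fos and Atf3, the TATA sequence TATAAA in Fos, an EGR site (GCGNGGGCG) in Fosl2 and the variant element TGACNTCA in Jun.
Fos, chr12:85473640-85473889, + strand: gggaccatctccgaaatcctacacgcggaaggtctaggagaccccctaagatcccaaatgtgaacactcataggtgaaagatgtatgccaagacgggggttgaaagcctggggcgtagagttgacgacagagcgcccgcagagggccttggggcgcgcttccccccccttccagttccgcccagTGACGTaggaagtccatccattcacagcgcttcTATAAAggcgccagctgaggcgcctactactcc
Fosl2, chr5:32136222-32136471, + strand: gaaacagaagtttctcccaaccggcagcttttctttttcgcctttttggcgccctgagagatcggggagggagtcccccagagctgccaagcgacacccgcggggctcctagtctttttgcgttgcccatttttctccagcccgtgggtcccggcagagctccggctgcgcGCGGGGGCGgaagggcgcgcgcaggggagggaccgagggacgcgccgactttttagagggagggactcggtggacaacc
Jun, chr4:95052223-95052472, - strand: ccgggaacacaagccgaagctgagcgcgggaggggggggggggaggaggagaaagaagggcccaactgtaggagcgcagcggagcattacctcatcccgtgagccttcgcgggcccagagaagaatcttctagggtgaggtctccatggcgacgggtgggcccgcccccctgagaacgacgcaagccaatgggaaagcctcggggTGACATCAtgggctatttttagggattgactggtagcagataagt
Atf3, chr1:191183334-191183583, - strand: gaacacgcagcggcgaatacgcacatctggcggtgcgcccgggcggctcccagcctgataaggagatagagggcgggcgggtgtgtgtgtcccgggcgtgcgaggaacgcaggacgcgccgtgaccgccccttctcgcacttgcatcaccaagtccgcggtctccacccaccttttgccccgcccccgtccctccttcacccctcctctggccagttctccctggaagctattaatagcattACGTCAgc

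Both strands were searched. TGACGT lay in the windows of Fos and Atf3, against 6.47% of 32851 promoter windows of the same length. GCGNGGGCG lay in those of Fosb and Fosl2, against 4.7% of all windows, TGACNTCA in that of Jun, against 7.49%, and TATAAA in that of Fos, against 12.4%. The elements TGANTCA and TGACGTCA, the latter of which contains TGACGT, the CArG box bound by serum response factor, and the E-box CACGTG bound by MYC were in none of the 7 windows, and in 6.75%, 1.55%, 1.47% and 6.02% of all windows. Bases further upstream were not searched, and Fosl1, Egr1 and Ier2 had no window, so these absences hold for the windows alone. The windows of Junb and Jund held none of the sequences searched. TGACNTCA, TGACGT and TATAAA were added to the search after the windows had been read. A match is a description of the letters and not of binding.

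In the mm9 assembly of the table, Fos lies on chromosome 12 from 86814840 to 86818223 with 4 exons, Fosb on chromosome 7 from 19888070 to 19895394, Fosl1 on chromosome 19 from 5447703 to 5455945 and Fosl2 on chromosome 5 from 32438845 to 32460204. Jun, on chromosome 4 from 94715725 to 94718913, Junb, on chromosome 8 from 87500811 to 87502617, and Jund, on chromosome 8 from 73221638 to 73224515, have a single exon. Atf3 lies on chromosome 1 from 192994175 to 193007219, Egr1 on chromosome 18 from 35020861 to 35024638 and Ier2, also with a single exon, on chromosome 8 from 87185230 to 87186751. The NCBIM37 annotation places Ccdc85b, BC042782, Gm11175 and Gm17507 on the strand opposite to Fosl1, Jun, Jund and Egr1, and the strand setting of the counting is not stated, so reads of such partners cannot be told apart from those of the 4 genes.

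Values are given in units of the deposited table, in which the authors set the upper quartile of every library to 1000, and levels of different genes are compared only per kb of exon. The libraries hold an estimated 8.22 to 36.6 M reads, and 3 reads, taken as a floor for detection, were worth 1.16 to 5.65 units. Vhl was low in VM-3055 and VIM-3039 cells labelled Dox (13.1 and 12.7 units) against MYC-2983 cells (451 units), and Cdkn2a was low in VIM-3039 cells (29.98 units with Dox and 34.07 without). The mouse Myc gene went against the Dox label: it had 676, 384 and 381 units in MYC-2983, VM-3055 and VIM-3039 libraries labelled Dox and 1831, 1364 and 1479 in those without, and it is not stated whether transgene reads fall on this gene. Directions of the Dox comparisons below are therefore those of the labels. From immunoblots, the paper reports that MYC protein depended on Dox in each of these lines, and that their growth slowed once Dox was removed. Whether the libraries read here carried that induction was not tested. Renal epithelial markers were measured in all groups, with sums over 6 genes of 5740 to 29231 units, and the proximal tubule markers Slc34a1 and Slc22a6 were at 0 or low in the cells.

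Of the 10 members, Fosl1 had the widest range between groups and Jund the narrowest. Fosl1 was under the floor in all 5 kidneys, at 0, 0, 0, 0 and 1.32 units, and averaged 500.2 units in VIM-3039 cells labelled Dox, at least 112-fold higher than the floor of the kidneys. The highest group mean exceeded the lowest 43.9-fold for Atf3, 30.3-fold for Fos, 24.6-fold for Fosl2, 17.7-fold for Fosb, 17.6-fold for Egr1, 13.4-fold for Junb, 6.81-fold for Ier2, 4.69-fold for Jun and 4.31-fold for Jund. Normal kidney had the lowest mean of all 10 groups for each of the 10 genes. Its libraries overlapped with those of the next group for Fos, Fosb and Jun, and lay apart from it for the other 7 genes. For Fosl1 that gap lies near the floor, since 2 of the 3 VIM tumours, the next group, were under it too. The kidneys overlapped with MYC tumours for Fosl1. The share of all genes for which normal kidney stands lowest or lies apart was not computed. These counts therefore cannot be called particular to the members.

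**Figure D1:**
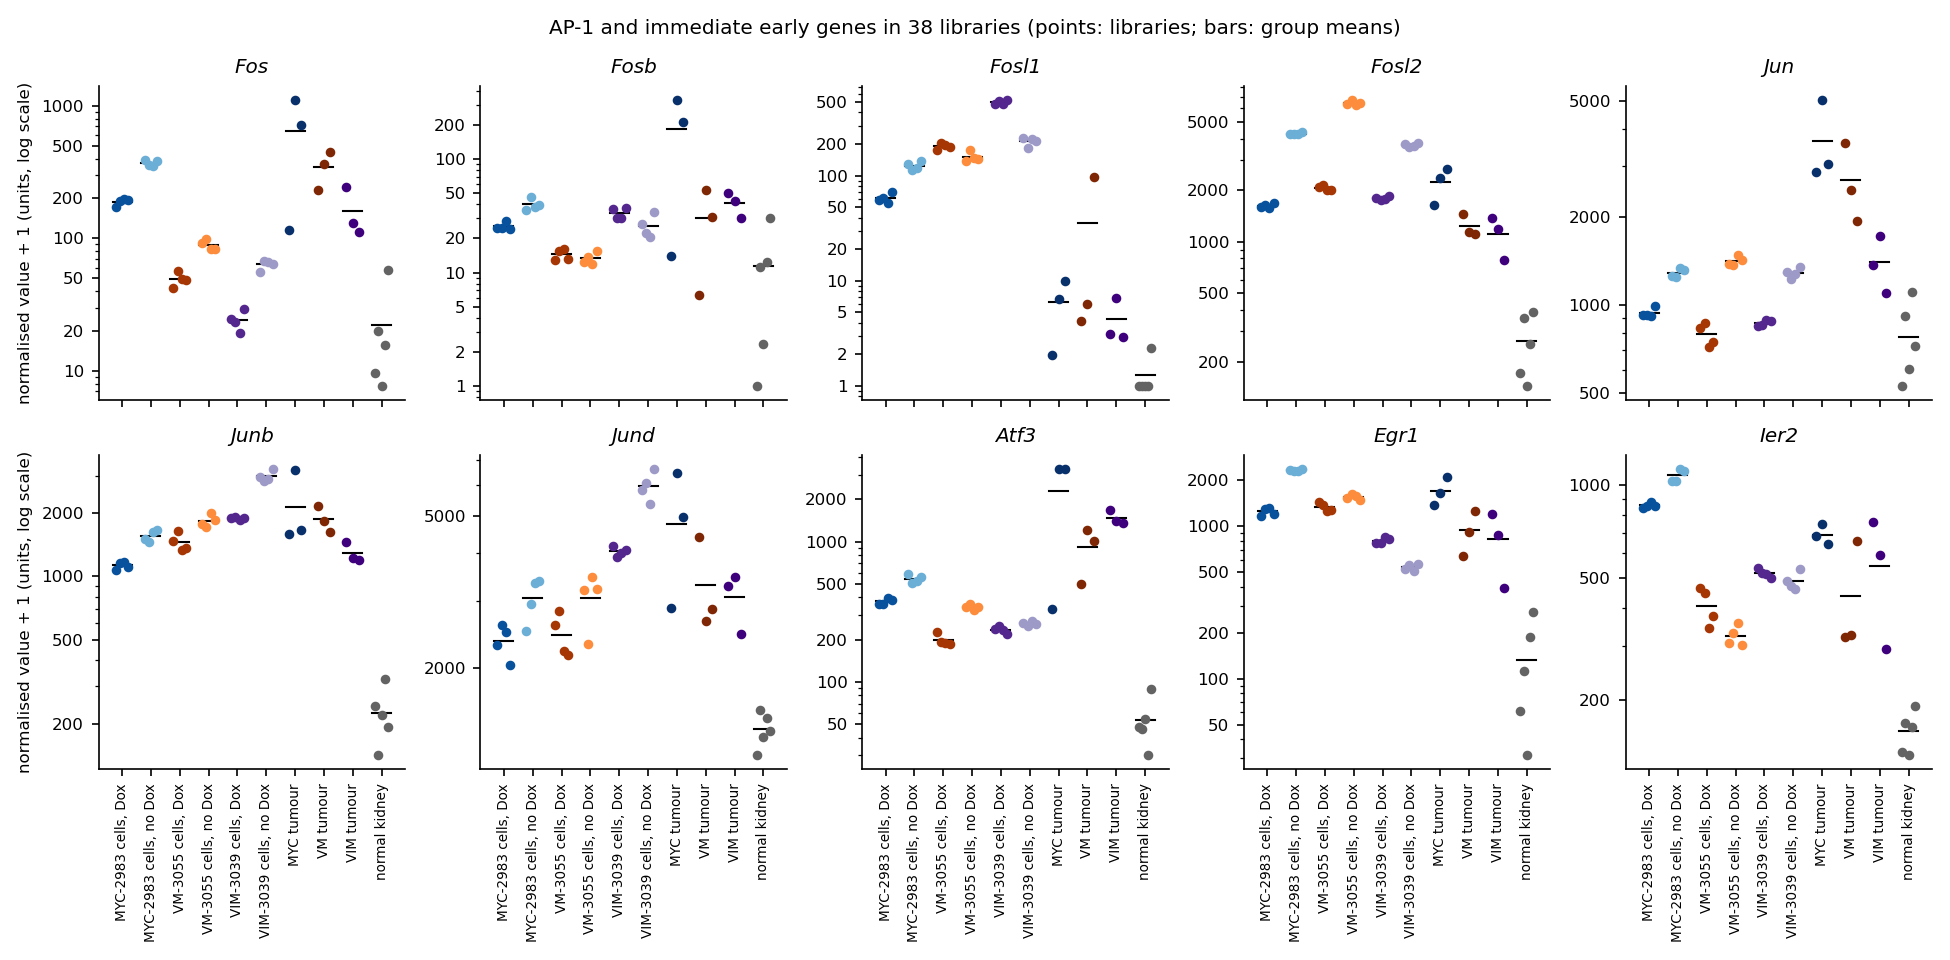
Value of each of the 10 members in every library, in units of the deposited table on a log10 axis of value + 1, with 1 panel per gene, 1 column per group and a bar at the group mean. Normal kidney has the lowest mean in each panel. Fosl1 is under the floor in kidney, at 0.989 to 95.7 units in tumours and at 53.6 to 521 units in the lines.

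The groups that lead this order differed by gene. MYC tumours had the highest mean of Fos (642 ± 497 units, SD, n = 3 libraries), Fosb (185 ± 159.6), Jun (3633 ± 1205) and Atf3 (2299.8 ± 1707), each overlapping with the next group. VIM-3039 cells without Dox had the highest mean of Junb (2993 ± 176, n = 4) and Jund (5979 ± 522), which overlapped with MYC tumours. MYC-2983 cells without Dox led for Egr1 (2325 ± 41.5) and Ier2 (1075 ± 50.1), and VM-3055 cells without Dox for Fosl2 (6462 ± 183), all without overlap with the next group.

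Whether withdrawal of Dox altered these genes was asked in each line. Fosl2 was lower in cells labelled Dox in all 3 lines and is the member with the clearest difference. Fosl1, its close relative, went down in MYC-2983 cells and up in VIM-3039 cells. To pass, a gene needed an adjusted p under 0.05 (limma, Benjamini-Hochberg over all genes tested, two-sided) and a log2 change beyond 1 in size, with 1 added to each value. In MYC-2983 cells 2 of the 10 members passed, both lower, against 19.5% of the 15104 genes tested (4.49% higher and 15% lower). In VM-3055 cells 1 passed, lower, against 24.8% of 14318 genes (5.92% higher and 18.9% lower), and in VIM-3039 cells 3 passed, 1 higher and 2 lower, against 24.3% of 13998 genes (7.67% higher and 16.6% lower). These shares of passing members are close to those of all genes in VIM-3039 and MYC-2983 cells and below that of VM-3055 cells. By adjusted p alone the members reached 10, 9 and 7 of 10, against 75.5%, 73.8% and 75.3% of all genes. The median change of the members was −0.59, −0.32 and −0.36, and that of all genes tested −0.13, −0.26 and −0.15.

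Fosl2, which makes FRA-2, had 1594, 1629.7, 1576 and 1679 units in the 4 MYC-2983 libraries labelled Dox and 4262, 4261, 4248 and 4347 without. In VM-3055 cells it had 2085, 2148, 2003 and 2012 units with Dox and 6413, 6698, 6256 and 6481 without. VIM-3039 cells had 1808, 1742, 1776 and 1845 units with Dox and 3718, 3575, 3603 and 3767 without. Every library labelled Dox lay below every library without in each line, with little spread within a group. The change of Fosl2 on the log2 scale was −1.40 (SE 0.026, adjusted p = 4.32e-18, limma), −1.65 (SE 0.042, adjusted p = 8.53e-16) and −1.03 (SE 0.032, adjusted p = 1.37e-17). With rescaling by trimmed means (TMM) the change was −1.29, −1.43 and −0.89, so that the call in VIM-3039 cells was lost.

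Fosl1, which makes FRA-1, had 57.6, 60.1, 53.6 and 69.1 units in MYC-2983 libraries labelled Dox and 129, 112, 117 and 136 without. It had 175, 202, 195 and 189 units with Dox and 137, 173, 145 and 142 without in VM-3055 cells. VIM-3039 cells had 482, 518, 479 and 521 units with Dox and 225, 182, 225 and 214 without. The groups did not overlap in any line, and the libraries labelled Dox were the lower ones in MYC-2983 cells and the higher ones in the other lines. Fosl1 rose by 1.24 in VIM-3039 cells (SE 0.070, adjusted p = 4.90e-13, limma) and fell by 1.03 in MYC-2983 cells (SE 0.103, adjusted p = 4.02e-08). In VM-3055 cells the change was 0.35 (SE 0.095, adjusted p = 0.00285) and did not pass. The call in MYC-2983 cells is at the threshold: the change was −0.98 without replicate 3 of the cells labelled Dox and also without replicate 4 of those without Dox, −0.93 with a pseudocount of 10, −0.92 with TMM and −0.70 with quantile normalization.

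Fos, the founding member of the family, had 170.0, 191, 198 and 193 units in MYC-2983 libraries labelled Dox and 391, 359, 350.1 and 379 without. It had 41.4, 55.3, 48.4 and 47.4 units with Dox and 91.7, 97.7, 82.2 and 82.8 without in VM-3055 cells. VIM-3039 cells had 23.6, 22.2, 18.4 and 28.3 units with Dox and 55, 66.9, 65.3 and 63 without. The libraries labelled Dox were again below the others without overlap in each line. Fos fell by 1.41 in VIM-3039 cells (SE 0.172, adjusted p = 1.74e-07, limma). The changes of −0.97 (SE 0.059, adjusted p = 3.21e-11) in MYC-2983 cells and −0.87 (SE 0.134, adjusted p = 1.22e-05) in VM-3055 cells stayed under the size required. With quantile normalization the change in VIM-3039 cells was −0.85 and did not pass. Fosb, which has a strong activation domain like Fos, was low in all lines, with 10.9 to 45.4 units in the 24 libraries. Its change was −0.64 in MYC-2983 cells (adjusted p = 0.000558), 0.11 in VM-3055 cells (95% interval −0.35 to 0.57, adjusted p = 0.659) and 0.40 in VIM-3039 cells (95% interval −0.02 to 0.82, adjusted p = 0.0764).

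The JUN genes did not pass in any line, although Jun and Junb were lower in every library labelled Dox than in every library without in all 3 lines. Jun, the main partner of Fos, had 913 to 991 units with Dox and 1250.2 to 1338 without in MYC-2983 cells, 718 to 871 and 1366 to 1484 in VM-3055 cells, and 844 to 888 and 1232 to 1346 in VIM-3039 cells. Its changes were −0.46, −0.84 and −0.57 (adjusted p = 4.89e-10, 4.09e-10 and 9.46e-12, limma). The changes of Junb, which can counteract Jun, were −0.47, −0.34 and −0.66 (adjusted p = 4.14e-09, 9.98e-05 and 3.86e-13), and those of Jund, the most steadily expressed member of the family, −0.37, −0.31 and −0.56 (adjusted p = 0.000346, 0.0110 and 2.05e-10). Jund was the JUN gene whose groups overlapped, in MYC-2983 and VM-3055 cells.

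Egr1, which answers to the same kinases as Fos, moved one way in MYC-2983 cells and the other in VIM-3039 cells, without passing in either. It had 1171, 1293, 1323 and 1205 units in MYC-2983 libraries labelled Dox and 2343, 2289, 2294 and 2375 without, a change of −0.90 (SE 0.035, adjusted p = 4.73e-14, limma). It had 1433, 1369, 1265 and 1268 units with Dox and 1534, 1612, 1571 and 1493 without in VM-3055 cells, a change of −0.22 (adjusted p = 0.000613). VIM-3039 cells had 771, 779.9, 846 and 818 units with Dox and 525, 554, 508 and 567 without, a change of 0.58 (SE 0.048, adjusted p = 3.62e-10). The groups did not overlap in any line, and the libraries labelled Dox were the higher ones in VIM-3039 cells alone of the 3 lines. With TMM the change in VM-3055 cells was −0.01.

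Atf3 was lower with Dox without overlap in each line, with changes of −0.53 (adjusted p = 1.56e-08, limma), −0.78 (adjusted p = 5.04e-08) and −0.15 (95% interval −0.29 to −0.01, adjusted p = 0.0519), and passed in none. In VIM-3039 cells its direction depended on the scaling, at −0.01 with TMM and 0.00 with quantile normalization. Ier2 changed by −0.32 in MYC-2983 cells (adjusted p = 1.05e-07), 0.32 in VM-3055 cells (adjusted p = 0.00376) and 0.08 in VIM-3039 cells (95% interval −0.03 to 0.20, adjusted p = 0.162), with overlapping groups in the last 2 lines. Counted over all members, the libraries labelled Dox lay apart below the others for 9 members in MYC-2983 cells, against 41% of all genes, for 6 in VM-3055 cells, against 44.4%, and for 6 in VIM-3039 cells, against 41.1%. They lay apart above for 0, 1 and 2 members, against 29.5%, 23.8% and 28.9% of all genes.

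**Figure D2:**
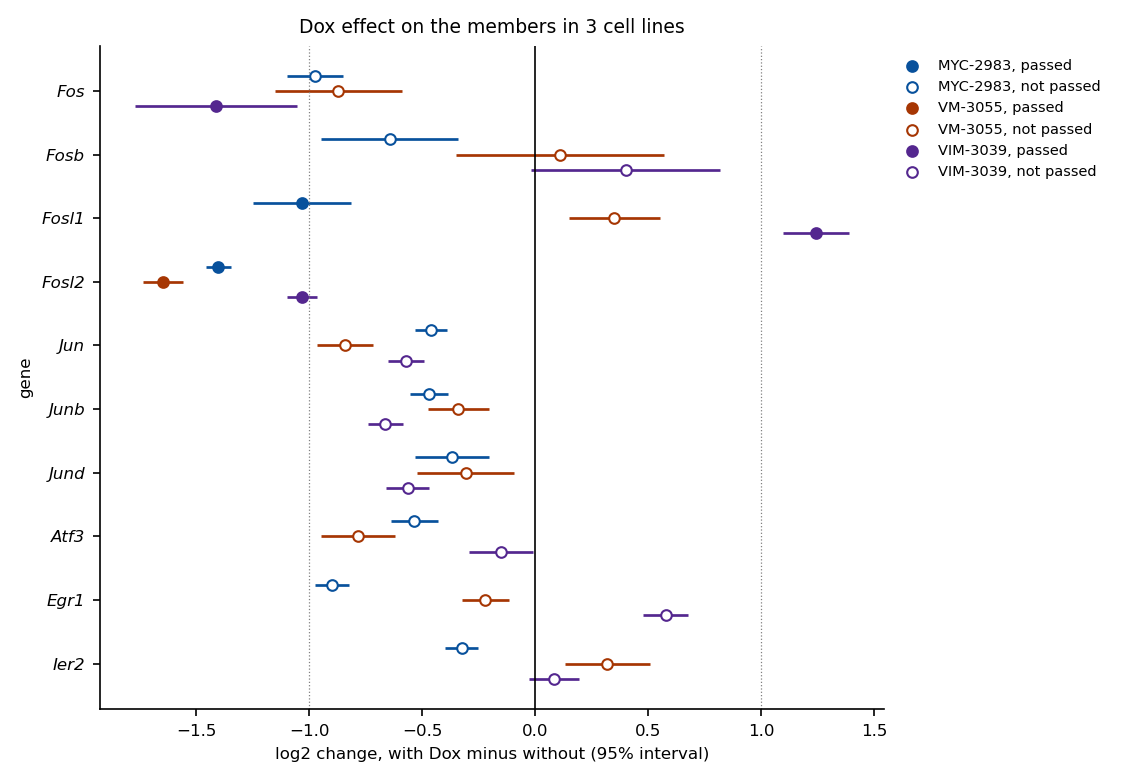
Change of each member with the Dox label on the log2 scale of value + 1, with its 95% interval from limma, for the 3 lines. Fosl2 lies between −1.65 and −1.03 in each line, and Fosl1 runs from −1.03 in MYC-2983 through 0.35 in VM-3055 to 1.24 in VIM-3039 cells.

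With the scaling of the table the middle of these comparisons lay below 0, and with TMM it lay above. Which scaling is nearer to the cells was not tested. The median change of genes with at least 50 units was −0.06, −0.17 and −0.09 in the MYC-2983, VM-3055 and VIM-3039 lines, and 0.06, 0.05 and 0.06 with TMM. Of the genes that passed, 23%, 23.8% and 31.6% were higher with Dox, against 30.9%, 38.9% and 42.5% with TMM and 42%, 48.4% and 49.3% with quantile normalization. Relative to that median, Fosl2 stood at −1.35, −1.48 and −0.94, Fosl1 at −0.97, 0.52 and 1.33, Fos at −0.92, −0.70 and −1.32, and Egr1 at −0.84, −0.05 and 0.67.

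Markers of other cell types moved with the Dox label in the lines. The sum over 8 fibroblast and mural genes was 15804 to 18603 units with Dox and 67360 to 71741 without in MYC-2983 cells, 3.51 to 5.96 and 28.2 to 46.3 in VM-3055 cells, and 473 to 649 and 4747 to 5292 in VIM-3039 cells. Of these genes 5 of 7 tested fell in MYC-2983, 3 of 5 in VM-3055 and 2 of 3 in VIM-3039 cells, with Acta2 as the main part of the sum in MYC-2983 and VIM-3039 cells. Thy1 was at 0 throughout VM-3055 and VIM-3039, and Rgs5 throughout MYC-2983 and VM-3055 libraries. The renal epithelial sum was also lower with Dox, with 2 of 6 genes that fell in each line, at 11562 to 13064 against 17439 to 18351 units, 5740 to 5865 against 13159 to 13606, and 5938 to 6073 against 10358 to 11091. The sum over 6 leukocyte genes was 218 to 254 against 439 to 469 units in MYC-2983, 361 to 403 against 940 to 1006 in VM-3055 and 287 to 314 against 370.1 to 445 in VIM-3039 cells, with Csf1r as its main part. Of these genes 1 of 3 tested fell in MYC-2983, 3 of 3 in VM-3055 and 0 of 4 in VIM-3039 cells, and Emr1 was at 0 throughout the lines. The part of these shifts in the changes of the members was not tested. In bulk RNA, fewer cells of a type and less RNA per cell cannot be told apart.

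The difference between lines in the Dox effect was tested as an interaction. No member passed between VIM-3039 and VM-3055 cells (0 of 10 with limma, against 6.05% of genes). Of the 10 members, 6 had an adjusted p under 0.05, against 33.3% of genes. An unadjusted p under 0.05 was reached by 8, for which the share of all genes was not computed. The largest of these differences, given as the effect in VIM-3039 minus that in VM-3055 cells, were 0.89 for Fosl1 (95% interval 0.65 to 1.13), 0.80 for Egr1 (0.66 to 0.94), 0.63 for Atf3 (0.43 to 0.83) and 0.62 for Fosl2 (0.52 to 0.72). Between VM-3055 and MYC-2983 cells Fosl1 passed (1 of 10, against 8.78% of genes), with a difference of 1.38 (SE 0.140, adjusted p = 8.55e-08). Between VIM-3039 and MYC-2983 cells 3 of 10 passed, against 9.06% of genes: Fosl1 with 2.27 (SE 0.125, adjusted p = 3.29e-12), Egr1 with 1.48 (SE 0.059, adjusted p = 2.95e-14) and Fosb with 1.04 (SE 0.247, adjusted p = 0.00132). The call of Fosb was lost without MYC-2983 replicate 2 of the cells without Dox (0.97), VIM-3039 replicate 4 with Dox (0.99), and VIM-3039 replicates 2 (0.98) or 3 (0.94) without Dox, at 0.80 with a pseudocount of 10 and at 0.92 with quantile normalization. The sample numbers in the titles of the MYC-2983 libraries start anew from those of the other lines, so the line and such a batch cannot be told apart where MYC-2983 cells are compared with the others.

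Among cells labelled Dox, Fos and Fosl1 differed between the lines in opposite directions. VM-3055 cells had less Fos (−1.95, SE 0.106, adjusted p = 9.05e-10, limma) and Ier2 (−1.09, SE 0.077, adjusted p = 1.47e-08) and more Fosl1 (1.65, SE 0.099, adjusted p = 2.43e-09) than MYC-2983 cells, and these 3 of 10 members passed, against 24.6% of genes. VIM-3039 cells differed from MYC-2983 cells in 2 members, against 23.9% of genes, with less Fos (−2.98, SE 0.130, adjusted p = 4.52e-11) and more Fosl1 (3.04, SE 0.081, adjusted p = 2.49e-13). VIM-3039 cells differed from VM-3055 cells in 3 members, against 19.1% of genes: Fos was lower (−1.03, SE 0.174, adjusted p = 6.26e-05), Fosb higher (1.22, SE 0.188, adjusted p = 2.50e-05) and Fosl1 higher (1.39, SE 0.063, adjusted p = 8.04e-12). These comparisons share their libraries. With quantile normalization Fosb also passed between VIM-3039 and MYC-2983 cells, at 1.25. The difference of Ier2 was −0.95 with TMM and −0.94 with quantile normalization, under the size required. The lower Fos of VIM-3039 against VM-3055 cells was lost without VM-3055 replicate 2 (−0.97) and without VIM-3039 replicate 3 (−0.94), and with a pseudocount of 10 both it (−0.81) and Fosb (0.86) were.

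Without Dox, Fos was again lower in VM-3055 and in VIM-3039 than in MYC-2983 cells, at −2.05 (SE 0.079, adjusted p = 1.57e-11, limma) and −2.55 (SE 0.084, adjusted p = 1.03e-12), while the differences of Fosl1, 0.27 and 0.77, did not pass. VM-3055 cells passed in 3 members, against 24.9% of genes, with Fosb at −1.58 and Ier2 at −1.73 beside Fos, and Fosb at −0.67 was lost with quantile normalization. VIM-3039 cells passed in 4, against 26.2% of genes, with Egr1 at −2.11, Ier2 at −1.14 and Atf3 at −1.05 beside Fos. With TMM the last pair stood at −0.99 and −0.90 and were lost, while Junb (1.09) and Jund (1.13) passed. With quantile normalization Junb (1.07), Jund (1.12) and Fosl1 (1.05) passed there, and Jund passed at 1.03 without MYC-2983 replicate 3 or 4 or VIM-3039 replicate 3. Between VIM-3039 and VM-3055 cells 1 member passed, against 21.7% of genes, with Egr1 at −1.53 (SE 0.049, adjusted p = 8.68e-14). Jund stood at 0.98 there, and passed at 1.01 to 1.05 without VM-3055 replicate 1, 3 or 4 or VIM-3039 replicate 3, and at 1.04 with TMM, while Fosb, at 0.93, passed at 1.03 without VIM-3039 replicate 3 and at 1.07 with quantile normalization.

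Per kb of exon, the mean share of Fosl2 in the FOS family message was over 50% in 9 of the 10 groups, and VIM-3039 cells labelled Dox shared it between Fosl2 and Fosl1. Fosl2 was 49.6% ± 1.22 (SD, n = 4) and Fosl1 47.4% ± 1.25 of the FOS family units per kb in those cells, against 80.0% ± 0.98 and 15.8% ± 1.20 without Dox. In VM-3055 cells Fosl2 was 72.2% ± 1.41 with Dox and 89.6% ± 0.635 without, and Fosl1 22.8% ± 1.01 and 7.09% ± 0.554. In MYC-2983 cells the shares moved less, with Fosl2 at 69.5% ± 0.951 and 75.3% ± 0.891, Fosl1 at 8.82% ± 0.715 and 7.45% ± 0.522, and Fos at 20.1% ± 1.13 and 16.2% ± 0.586. The shares of Fosl1 did not overlap between the Dox labels in either line with Vhl loss. These shares come from the same values as the changes above and were not tested.

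In tumours Fos had the next largest mean share of the FOS family after Fosl2, with wide spread. Fosl2 was 60.5% ± 21.6 (SD, n = 3 libraries) in MYC tumours, from 41.9% to 84.2%, 55.7% ± 14.3 in VM tumours, from 42.8% to 71.0%, and 70.6% ± 3.83 in VIM tumours, and in 1 MYC tumour Fos, at 48.6%, exceeded it. Fos was 33.4% ± 17.3 (SD, n = 3 libraries) of the FOS family units per kb in MYC tumours, 37.6% ± 8.31 in VM tumours and 24.7% ± 4.44 in VIM tumours, and Fosl1 0.388% ± 0.239, 4.66% ± 6.91 and 0.735% ± 0.460. In normal kidney Fosl2 was 82.3% ± 8.94 (n = 5) and Fos 13.8% ± 5.94. The FOS family summed to 56.9 units per kb in kidney on average, 271 in VIM, 386 in VM and 705 in MYC tumours, and 398 to 1232 in the lines. In the JUN family, Jund had the highest mean share in every group, from 37.7% ± 3.27 in VM tumours to 57.2% ± 4.39 in kidney. Junb was 14.7% ± 3.99 of the JUN family in kidney and 29.6% to 42.3% on average in the other groups, and Jun was 9.77% to 29.0%, lowest in VIM-3039 cells.

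**Figure D3:**
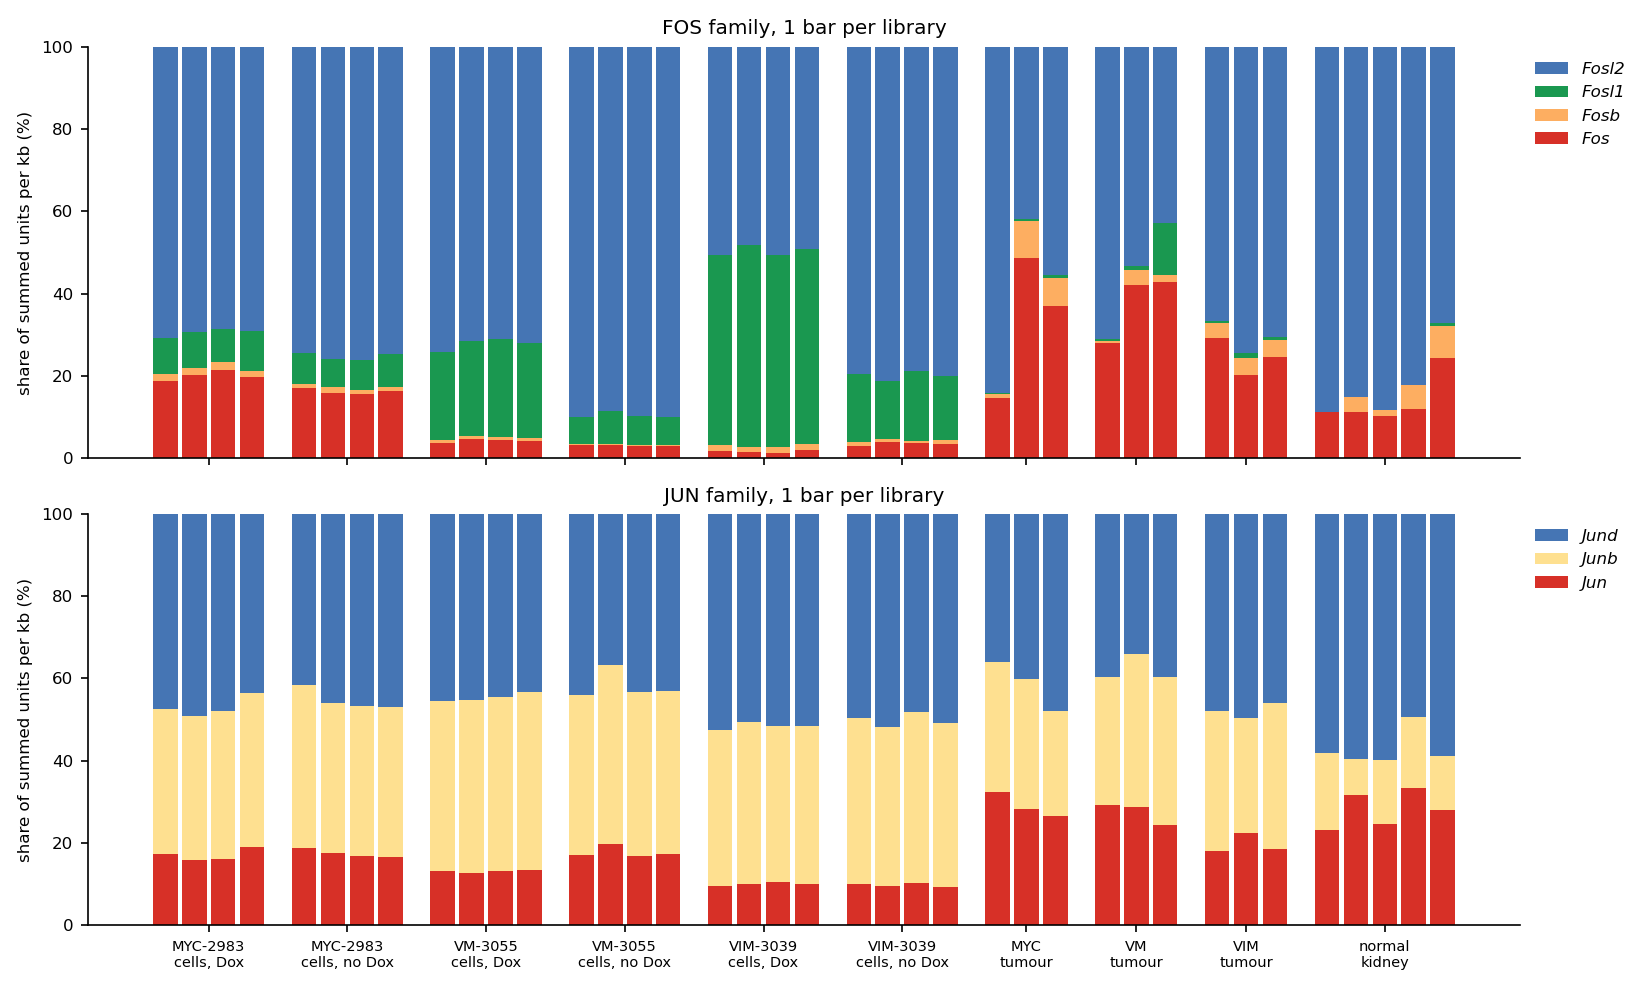
Share of each FOS gene and each JUN gene in the summed units per kb of exon of its family, in percent, as stacked bars from 0 with 1 bar per library, ordered by group. On average Fosl1 reaches 47.4% in VIM-3039 cells labelled Dox, and Junb is lowest in normal kidney at 14.7%.

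Tumours were compared with normal kidney to see how the members stood in whole tissue. Of the 10 members 9 rose in MYC tumours, 9 in VM tumours and 9 in VIM tumours, and none fell. Among all genes tested 18.7%, 17.3% and 18.9% rose, 18.5%, 22.5% and 20.7% fell, and 37.3%, 39.8% and 39.6% passed in either direction. The members that did not pass were Fosb in MYC and VM tumours and Jun in VIM tumours. Each count of 9 includes Fosl1, which was under the floor in every kidney. Fosl1 could be tested only through the tumour libraries, and its calls were lost in several refits given below. The count in VIM tumours also includes Fosb, whose call was lost in several refits as well. The median change of the members was 3.10, 2.72 and 2.36 on the log2 scale, and that of all genes 0.08, −0.05 and 0.01. The 3 comparisons share the same 5 kidneys, so their likeness is not independent. The share of all genes whose tumour libraries lie apart from the kidneys was not computed. A lack of overlap given below therefore describes single members only.

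Fos had 114, 1100.3 and 712 units in the MYC tumour libraries, 230.4, 361 and 446 in VM tumours and 241, 130.3 and 110.1 in VIM tumours. The kidneys had 8.65, 19, 6.69, 14.7 and 56.9 units, so all 9 tumour libraries were above all 5 kidneys. Fos rose by 4.25 (SE 0.953, adjusted p = 0.00623, limma) in MYC tumours, with its 2 libraries of mouse 2983 averaged, by 4.31 (SE 0.625, adjusted p = 0.000269) in VM tumours and by 3.18 (SE 0.639, adjusted p = 0.00227) in VIM tumours. Fosl2 had 1641, 2359.6 and 2662 units in MYC, 1454, 1140.2 and 1112 in VM and 1373, 1189 and 786 in VIM tumours. It had 169.6, 361, 143, 252 and 389.6 units in kidney, again below all tumours. Fosl2 rose by 3.05 (SE 0.413, adjusted p = 0.000530), 2.33 (SE 0.331, adjusted p = 0.000242) and 2.15 (SE 0.358, adjusted p = 0.000742).

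Fosb and Fosl1 were close to the floor in much of the tissue. Fosb had 13.1, 329 and 212 units in MYC, 5.33, 52.6 and 29.6 in VM and 49, 41.4 and 29.4 in VIM tumours, and 0, 10.2, 1.34, 11.4 and 29.1 in kidney. The MYC and VM tumours overlapped with the kidneys. Fosb rose in VIM tumours by 2.67 (SE 1.001, adjusted p = 0.0472, limma), a call lost without any 1 of the VIM tumours or of kidney replicates 1 to 4 and with a pseudocount of 0.1. It stood at 3.28 (95% interval −0.16 to 6.72, adjusted p = 0.1002) in MYC and 1.80 (95% interval −0.74 to 4.33, adjusted p = 0.205) in VM tumours. Fosl1 had 0.989, 5.68 and 9.03 units in MYC, 3.20, 5.01 and 95.7 in VM and 2.15, 5.81 and 1.95 in VIM tumours, and passed in each comparison (adjusted p = 0.0465, 0.00930 and 0.0134). Since all kidneys were under the floor, only bounds can be given for its fold: at least 1.17-fold higher in MYC and 7.78-fold in VM tumours, the latter resting on 1 library with 95.7 units, and none in VIM tumours, whose mean was under the floor as well. The call in MYC tumours was lost without MYC tumour replicate 3 and without each of kidney replicates 1 to 4. In MYC, VM and VIM tumours alike the call of Fosl1 was lost against the kidneys titled KT alone (adjusted p = 0.156, 0.0504 and 0.0706, limma), against those titled B6 alone (adjusted p = 0.119, 0.0829 and 0.0528) and with a pseudocount of 10, and the fitted difference in VM tumours ran from 2.09 without VM tumour replicate 3 to 4.35 without VM tumour replicate 1.

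Junb was the JUN gene with the largest difference. It had 1582, 3185 and 1664 units in MYC, 2169, 1827 and 1629 in VM and 1452, 1221 and 1194 in VIM tumours, and 242, 141, 218, 325 and 191 in kidney. The lowest tumour library lay far above the highest kidney. Junb rose by 3.14 (SE 0.309, adjusted p = 0.000113, limma), 3.11 (SE 0.249, adjusted p = 6.60e-06) and 2.57 (SE 0.254, adjusted p = 3.42e-05). Jun rose by 2.15 in MYC tumours (SE 0.291, adjusted p = 0.000525) and 1.79 in VM tumours (SE 0.271, adjusted p = 0.000356). In VIM tumours Jun had 1373, 1727 and 1101 units against 528 to 1106 in kidney, a difference of 0.88 (95% interval 0.30 to 1.46, adjusted p = 0.0171) that passed at 1.04 without VIM tumour replicate 3, at 1.02 without kidney replicate 4 and at 1.29 against the kidneys titled B6 alone. Jund rose by 1.54, 1.22 and 1.14 (adjusted p = 0.00115, 0.000282 and 0.000282), and the value in VM tumours was 0.99 without VM tumour replicate 1.

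Atf3 showed the largest difference of the members in MYC and VIM tumours. It had 328, 3273 and 3298 units in MYC, 501, 1213 and 1007 in VM and 1669, 1402 and 1347 in VIM tumours, and 46.7, 45.3, 53.5, 29.3 and 87.3 in kidney. No tumour library overlapped with the kidneys, and the MYC tumour of mouse 2917 and VM tumour replicate 1 were the lowest tumours. Atf3 rose by 4.37 (SE 0.788, adjusted p = 0.00217, limma), 4.08 (SE 0.394, adjusted p = 2.09e-05) and 4.87 (SE 0.324, adjusted p = 4.26e-06). Egr1 had 1382, 1656 and 2093 units in MYC, 636, 908 and 1264 in VM and 1205, 877 and 393 in VIM tumours, and 60.6, 111, 30.8, 187 and 271 in kidney. Its groups lay apart as well, with rises of 3.97 (adjusted p = 0.00271), 3.14 (adjusted p = 0.00192) and 2.87 (adjusted p = 0.00511). Ier2 rose by 2.13 (adjusted p = 0.000108), 1.39 (adjusted p = 0.00189) and 1.69 (adjusted p = 0.00124), from 133 to 191 units in kidney to 292 to 757 in tumours.

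**Figure D4:**
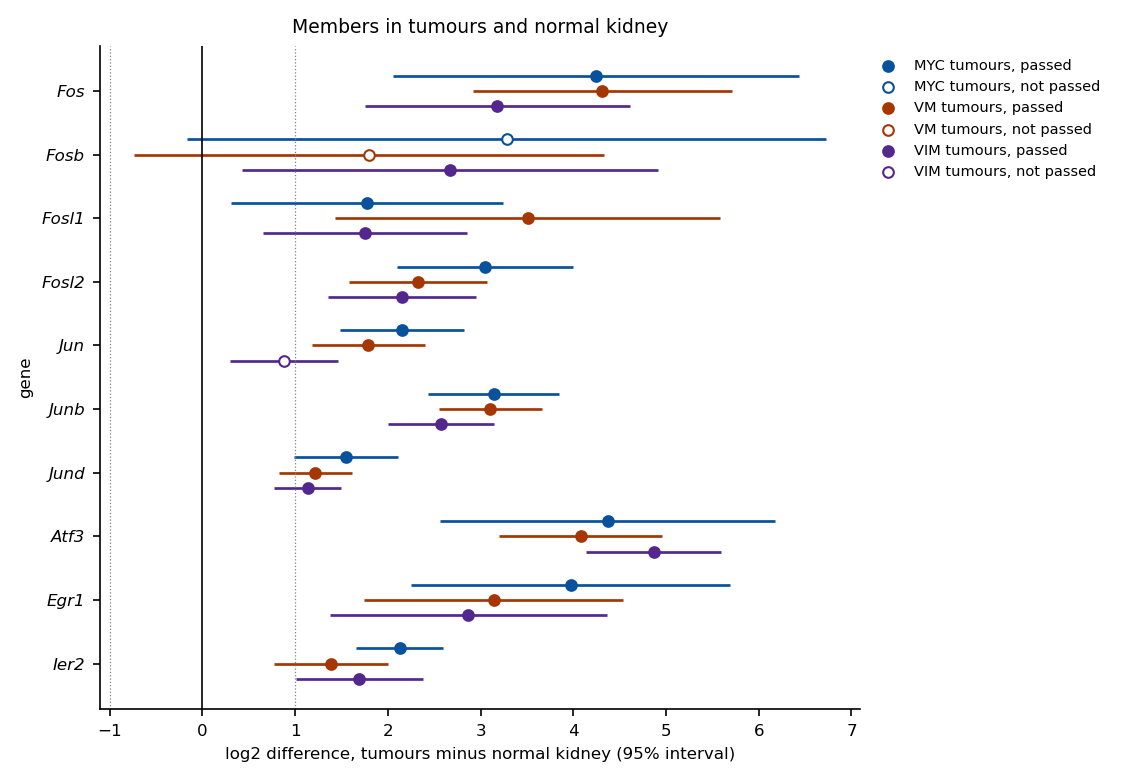
Difference of each of the 10 members between tumours and the 5 normal kidneys on the log2 scale of value + 1, with its 95% interval from limma, for MYC, VM and VIM tumours. By library values, which are not drawn, all 9 tumour libraries lie above all kidneys for Fos, Fosl2, Junb, Jund, Atf3, Egr1 and Ier2. The share of all genes that lie apart in this way was not computed. The values overlap for Fosl1 in MYC tumours, for Fosb in MYC and VM tumours, and for Jun in VIM tumours.

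Markers of other cell types differed along with these rises. The sum over 6 leukocyte genes was 3295 to 15670 units in MYC, 2247 to 7920 in VM and 7251 to 14202 in VIM tumours, against 1339 to 2328 in kidney, and 3, 2 and 3 of the 6 genes rose, with Lyz2 and Cd68 among them each time, while Ptprc fell in VM and Cd3e in VIM tumours. The sum over 5 proximal tubule genes was 1521 to 10199 units in tumours and 173885 to 212658 in kidney, with all 5 lower in each comparison, and the sum over 4 endothelial genes was 138 to 1372 in tumours and 2289 to 4077 in kidney. The fibroblast and mural sum was 506 to 6951 units in tumours and 1866 to 4751 in kidney. The heat shock genes, which also respond to stress, summed to 13110 to 19494 units in tumours and 10078 to 25394 in kidney. Of these 7 genes 1, 2 and 1 rose and 0, 0 and 1 fell. Among all genes tested 18.7%, 17.3% and 18.9% rose and 18.5%, 22.5% and 20.7% fell. The part of these markers in the changes of the members was not tested.

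Libraries within kidney and within MYC tumours stood apart for many members. The 3 kidneys titled KT had more of 7 members than the 2 titled B6, without overlap, against 21.7% of all genes higher and 18.3% lower in that way. Mean values of the KT kidneys were 25.3-fold those of B6 for Fosb, 4.15-fold for Egr1, 3.93-fold for Fos, 2.14-fold for Fosl2, 1.62-fold for Jun, 1.3-fold for Ier2 and 1.17-fold for Jund, while Junb, Atf3 and Fosl1 overlapped. The 2 MYC tumour libraries of mouse 2983 had more of 9 members than the library of mouse 2917, against 32.1% of all genes higher and 36.5% lower. The ratio was 20.7 for Fosb, 10.01 for Atf3, 7.96 for Fos and 7.44 for Fosl1, and Ier2 overlapped. With the B6 kidneys alone Fosb passed in MYC (5.32) and VM tumours (3.83), and with the KT kidneys alone its call in VIM tumours was lost (1.31).

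No member differed between the tumour genotypes by the rule used. With limma 0 of 10 passed between VM and MYC, VIM and MYC, and VIM and VM tumours, against 0%, 0.00613% and 0.249% of all genes. An unadjusted p under 0.05 was reached by 2, 2 and 4 members, for which the share of all genes was not computed. The nearest was Jun, with 1.27 less on the log2 scale in VIM than in MYC tumours (95% interval −1.99 to −0.56, adjusted p = 0.235), where the 1101 to 1727 units of VIM tumours lay below the 2842 to 5020.1 of MYC tumours. For other members the intervals were wide, as for Fos between VM and MYC tumours (0.07, 95% interval −1.90 to 2.03) and Atf3 between VIM and MYC tumours (0.50, 95% interval −1.5 to 2.50), so the absence of a call does not show that these levels were alike.

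Cells labelled Dox were set against tumours of their own genotype, with the limit that a tumour holds other cells than the line. Fosl1 was higher in the cells each time, by 3.91 in MYC-2983 (SE 0.551, adjusted p = 0.00110, limma) and 3.83 in VM-3055 cells (SE 0.965, adjusted p = 0.00859). Single tumours moved these differences: the first was 2.89 without MYC tumour replicate 1, and the second 2.99, 3.24 and 5.25 without VM tumour replicates 1, 2 and 3. VIM tumours had a mean of Fosl1 under their own mean floor, and VIM-3039 cells, at 500.2 units, were higher (adjusted p = 1.47e-06, limma), at 100.6-fold that floor. VIM tumour replicate 2, at 5.81 units, was above its own floor, so this fold is no bound for each tumour. Fos and Atf3 were lower in VM-3055 cells, at −2.78 (SE 0.258, adjusted p = 4.80e-05) and −2.10 (SE 0.280, adjusted p = 0.000319), and in VIM-3039 cells, at −2.68 (SE 0.323, adjusted p = 0.000211) and −2.64 (SE 0.125, adjusted p = 1.63e-06). Jun was lower in MYC-2983 (−1.83, SE 0.126, adjusted p = 6.94e-05) and VM-3055 cells (−1.71, SE 0.193, adjusted p = 0.000134). In all 2, 4 and 3 members passed, against 38.3%, 40.7% and 45.8% of genes, so the shares of passing members were not above those of all genes. Without MYC tumour replicate 1 (mouse 2917) the tumour group of the MYC comparison was left with mouse 2983 alone, so the spread came from the cells only. The differences were then −2.23 for Fos, −3.38 for Fosb, −1.03 for Junb, −1.27 for Jund and −3.14 for Atf3, and no call is drawn from them. Without VM tumour replicate 1, Fosb passed at −1.49 in the VM comparison. Fosl2, Egr1 and Ier2 passed in none of these 3 comparisons, except that Fosl2 passed at 1.01 in VIM-3039 cells with TMM.

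Genes of the same response were read from lists for comparison. Of other immediate early genes 14 of 30 tested fell with the Dox label in MYC-2983, 9 of 29 in VM-3055 and 12 of 29 in VIM-3039 cells, and 0 rose, against 15%, 18.9% and 16.6% of all genes that fell, with median changes of −0.93, −0.68 and −0.85. The matricellular gene Ctgf fell in each line (−1.90, −1.56 and −2.02), from 32967 to 8867 units in MYC-2983 cells. Maff, which makes a small MAF protein, fell in each as well (−1.6, −1.57 and −1.87). Errfi1, an inhibitor of the EGF receptor, fell in MYC-2983 (−1.77) and VM-3055 cells (−1.69), and the matricellular gene Cyr61 in VM-3055 cells (−1.63). The transcription factor gene Bhlhe40 fell in MYC-2983 cells (−1.62), and the kinase gene Sgk1 (−2.13) and the prostaglandin synthase gene Ptgs2 (−1.72) in VIM-3039 cells. These medians lie further below 0 than the −0.13, −0.26 and −0.15 of all genes tested.

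Genes that feed back on the kinases and genes that AP-1 is known to drive were lower as well. Of 15 feedback genes 8, 5 and 7 fell in the MYC-2983, VM-3055 and VIM-3039 lines and 0 rose, beside the same 15%, 18.9% and 16.6% of all genes, with medians of −1.02, −0.77 and −0.98. The phosphatase genes Dusp1 and Dusp10, which act on the JUN and p38 kinases, fell in each line, with changes of −1.45, −2.03 and −2.20 for Dusp1 and −1.57, −1.84 and −2.31 for Dusp10. Of AP-1 target genes 14 of 17, 10 of 16 and 12 of 18 fell and 0 rose, beside those shares, with medians of −1.20, −1.25 and −1.20. The urokinase gene Plau fell in MYC-2983 cells (−2.30). The matrix gene Tnc fell in VM-3055 (−1.97) and VIM-3039 cells (−2.07), as did the cytokine gene Il11 (−1.80 and −2.41), and the metalloproteinase gene Mmp10 fell in each line (−1.52, −2.54 and −2.58). Ctgf and Tnc are also made by fibroblasts, whose markers moved the same way, and the part of those markers was not tested. In VM-3055 cells the sum of fibroblast and mural markers was low, at 3.51 to 5.96 units with Dox and 28.2 to 46.3 without.

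Other leucine zipper genes and the kinases moved less as groups. Of 15 tested partners 4, 5 and 6 fell and 1 rose in each line, where 15%, 18.9% and 16.6% of all genes fell and 4.49%, 5.92% and 7.67% rose, with medians of 0.02, −0.15 and −0.22. Ddit3, a stress factor that pairs with C/EBP proteins, fell in each line (−1.22, −1.92 and −2.12), as did Jdp2, which binds JUN proteins (−1.18, −1.90 and −1.52). The gene that rose was Batf3, at 45.7 units with Dox and 7.55 without in MYC-2983 cells and at no more than 3.0 units on average in the other lines, near or under the floor. Of 19 kinase and serum response factor genes 1 fell in each line, Elk3 in MYC-2983 (−1.47) and VM-3055 cells (−1.22) and Mapk3 in VIM-3039 cells (−1.03). Of 7 heat shock genes Hspb1 fell in each line (−1.25, −1.21 and −1.51), while Hsph1 rose by 1.03 in VM-3055 and by 1.03 in VIM-3039 cells.

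**Figure D5:**
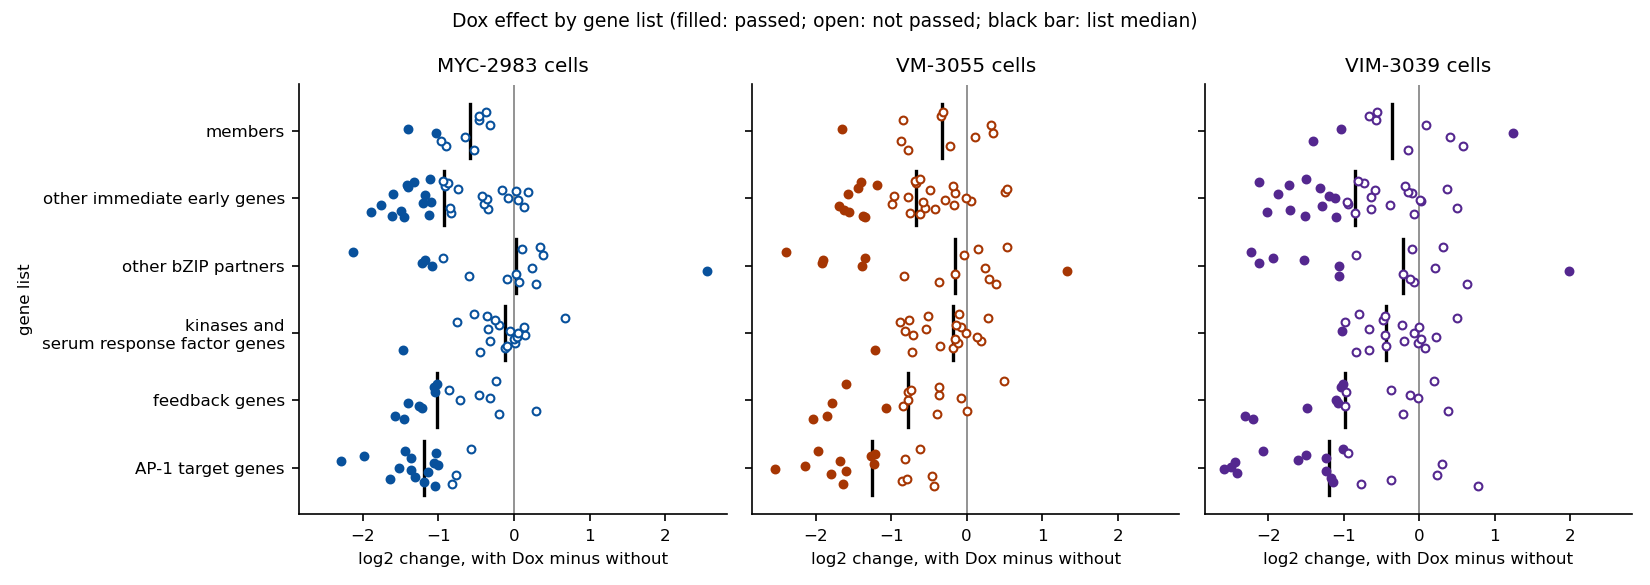
Change with the Dox label on the log2 scale of value + 1 for each gene of the lists read here, by line, with a bar at the median of each list. The AP-1 target genes have medians of −1.20, −1.25 and −1.20 and the members −0.59, −0.32 and −0.36 in the MYC-2983, VM-3055 and VIM-3039 lines.

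Across the 10 group means, some members followed each other. On log2(value + 1), Pearson's r was 0.90 for Junb and Jund, 0.84 for Fos and Atf3, 0.84 for Fosb and Ier2 and 0.82 for Fosl2 and Junb. Among 13354 other genes with at least 50 units in some group, those nearest to each member were Dem1 (r = 0.942) for Fos, Snx10 (0.903) for Fosb, Relt (0.977) and Pcyt1b (0.977) for Fosl1, Tbc1d9 (0.978) and Tgif1 (0.976) for Fosl2, and Vps13c (0.961) for Jun. Hectd2 was nearest to Junb (0.984), and Cited2 (0.955) and then Hectd2 (0.935) to Jund. Rccd1 (0.966) was nearest to Atf3, Irx5 (0.963) to Egr1 and Ell (0.938) to Ier2. These are 10 points each, in which the kidneys stand low for all members and the lines share their libraries' scaling, so the values describe likeness of pattern among very many candidates and carry no test.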

How the data were processed

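Mouse RNAseq was made from TruSeq Stranded mRNA libraries read as paired ends. The values deposited by the authors are a signal. MapSplice aligned the reads to mm9, RSEM assigned them to genes, and each library was then scaled so that its upper quartile was 1000; the submitters' processing notes also name Picard 1.64, UBU 1.0 and SAMtools. The values are not counts. What 1 read is worth was estimated per library from its most frequent low value, and 94.1% to 95.9% of low values were then whole within 0.02. The median library held 15.2 M estimated reads. Of the 21705 rows, 2 that share a symbol were left out, and 3234 genes are at 0 in every library.

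The 21 comparisons were made with limma (version 3.58.1, R 4.3.3) from log2(value + 1), each over its own groups, using a variance trend in eBayes. A gene was tested when above 0 in 4 or more of the libraries of a fit, or 2 or more where tumours take part, and libraries of one mouse were averaged beforehand. A change on this scale understates that of low genes. The members and lists were chosen with earlier results of these data known. Named genes of a list are the passing genes with the largest change and a mean of at least 50 units, at most 4 a list and comparison; some of these are not reported here. Batf3, Cd3e and the marker genes named as being at 0 or low fall outside this rule and were named after their values were seen. Groups come from the sample labels, and the line numbers of VM-3055 and VIM-3039 from the study's methods.

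Same-numbered libraries of the 2 Dox labels correlated across genes at −0.31 to −0.05 in VM-3055 and −0.06 to 0.11 in VIM-3039 cells, so the numbers were not used as pairs. Alternatives were a pseudocount of 0.1 or 10, requiring a mean of 10 units, dropping the filter, TMM rescaling with trims of 30% and 5%, quantile normalization, each tumour library on its own, the kidneys of 1 title, a replicate block, a limma voom fit on recovered reads, and each library left out. The procedure was tested on simulated data. Plots were made with matplotlib 3.10.9 under Python 3.11.15, and exon lengths and positions come from the NCBIM37 annotation.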

Additional observations from a re-analysis of the deposited data

Results flagged for a closer look

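Fos in normal kidney was high in replicate 5, at 56.93 units against 6.69 to 19 in the other 4 kidneys. Fosl1 was above 0 in that kidney alone of the 5, at 1.316 units, which is under the floor of 3 reads. Fosl2 in MYC-2983 cells without Dox was highest in replicate 4, at 4347 units against 4248 to 4262 in the other 3 libraries, a difference of little size beside the fall with Dox. These 3 flags by Dixon's test come from 70 groups of a gene and a condition, and chance alone flags about 5% of groups.

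The Dox effect differed between lines by the interaction test of limma for 3 members. For Fosl1 the effect was higher by 1.381 (adjusted p = 8.55e-08) in VM-3055 and by 2.272 (adjusted p = 3.29e-12) in VIM-3039 than in MYC-2983 cells. For Egr1 it was higher by 1.476 (adjusted p = 2.95e-14) and for Fosb by 1.044 (adjusted p = 0.00132) in VIM-3039 than in MYC-2983 cells. Both differences of Fosl1 and that of Egr1 kept their call under each alternative run, and that of Fosb did not, as given with its values above.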

How the results depend on the processing

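Counts of passing members stayed within 1.5 times of the reported count in 138 of 144 refits with another setting and in 176 of 183 that left out a library, and single members kept direction and side of the threshold in 1379 of 1437 and 1761 of 1830. In MYC-2983 cells the 2 calls with Dox became 1 with a pseudocount of 10, TMM and quantile normalization, and 1 to 2 with a library left out. VIM-3039 against VM-3055 cells gave 1 call with Dox at a pseudocount of 10, in place of 3, and without Dox 2 calls with TMM and with quantile normalization, in place of 1, and 1 to 3 with a library left out. MYC-2983 cells against MYC tumours gave 2 to 7 calls with a library left out. The cause was not tested.

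A replicate block over the titles' numbers gave 1, 3, 0, 3 and 1 calls for Dox in VM-3055, Dox in VIM-3039, their difference, and the lines with and without Dox, and limma voom on recovered reads 2, 1 and 3 for Dox in the 3 lines, which are the counts reported. Of 4 numbers, 0 and 1 correlated best with their own in VM-3055 and VIM-3039 cells, so the block says nothing of pairs.

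Some differences turned in sign, and not all of them were near 0. The reported values of Fosb were −0.82 in VM-3055 with Dox and −0.65 in VIM-3039 without Dox against MYC-2983 cells. That of Fos was −0.44 for the Dox effect in VIM-3039 minus MYC-2983 cells. With quantile normalization, Fosb in VIM-3039 cells against VIM tumours passed in the opposite direction (adjusted p = 0.00316, limma). With TMM, Jun stood at 0.0306 (Dox) and 0.1461 (no Dox) between VIM-3039 and MYC-2983 cells, Jund at 0.1036 between VM-3055 and MYC-2983 cells without Dox, Junb at 0.06589 between VM and MYC tumours, Fosl1 at 0.003202 between VIM and MYC tumours, Ier2 at 0.1708 between VM-3055 cells and VM tumours and Fosb at 0.01737 between VIM-3039 cells and VIM tumours. With quantile normalization, Atf3 stood at 0.004766 for Dox in VIM-3039 cells, Fos at 0.134 for the Dox effect in VIM-3039 minus MYC-2983 cells, Fosb at 0.2838 and 0.2618 in VM-3055 with Dox and VIM-3039 without Dox against MYC-2983 cells, Jund and Jun at 0.1029 and 0.1215 in VM-3055 and VIM-3039 against MYC-2983 cells without Dox, and in cells against tumours Ier2 at 0.2922 (VM) and Fosb at 1.196 (VM) and 1.416 (VIM). Fosl1 stood at 0.09674 between VIM and MYC tumours with a pseudocount of 0.1. With each tumour library as a sample, Fos was −0.4224 between VM and MYC tumours and Atf3 −0.05713 between VIM and MYC tumours.

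With a library left out, differences between tumours that changed sign ran from −1.405 to 0.3351 (Fos), −0.306 to 0.1985 (Junb) and −1.951 to 0.089 (Atf3) for VM against MYC, from −1.039 to 0.199 (Fosl1) and −1.163 to 0.557 (Atf3) for VIM against MYC, and from −0.01539 to 1.526 (Fosb), −0.3429 to 0.05929 (Fosl2), −0.6166 to 0.1908 (Egr1) and −0.224 to 0.1405 (Jund) for VIM against VM. Cells against tumours ran from −1.492 to 0.04881 (Fosb) and −0.2035 to 0.3152 (Ier2) for VM, and −0.3556 to 0.4518 (Egr1) and −0.3741 to 0.3119 (Ier2) for VIM. Between VM-3055 and MYC-2983 cells Jund ran from −0.06839 to 0.1479 for the Dox effect, −0.0171 to 0.1097 with Dox and −0.0939 to 0.1224 without, and Jun from −0.02571 to 0.01669 for VIM-3039 against MYC-2983 cells without Dox. Where a tumour arm was left with 1 animal, its spread was taken from the other group. Depth limits Fosl1 and Fosb in kidney and tumours, where values lie near the worth of 3 reads.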

Other observations

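The lists of related genes were also read in the tumours. Of 29 other immediate early genes tested, 9 rose and 2 fell in MYC tumours against kidney, 12 rose and 2 fell in VM tumours, and 8 rose and 2 fell in VIM tumours, with medians of 0.39, 0.40 and 0.58. Among all genes tested 18.7%, 17.3% and 18.9% rose and 18.5%, 22.5% and 20.7% fell in these comparisons. Maff rose by 3.09, 4.15 and 3.89, Nr4a2, a nuclear receptor gene, by 3.33 in MYC tumours and Gadd45b, a stress gene, by 2.84 and 2.53 in VM and VIM tumours. Errfi1 fell in all 3 (−3.26, −3.13 and −2.89) from 13844 units in kidney. Of 15 feedback genes 3, 3 and 2 rose and 5, 4 and 7 fell. The phosphatase gene Dusp8 rose by 2.83 and 2.91 in MYC and VM tumours, whereas Spry4, an inhibitor of receptor kinase signals, fell in all 3 (−2.83, −2.69 and −3.45) and Dusp4 in VM (−4.19) and VIM tumours (−3.73).

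Of AP-1 target genes 5 rose and 4 fell of 16 tested in MYC, 7 rose and 2 fell of 18 in VM and 9 rose and 3 fell of 18 in VIM tumours, beside those shares of all genes. Timp1, an inhibitor of metalloproteinases, rose by 5.05, 4.74 and 4.76 from 7.5 units in kidney, and the hyaluronan receptor gene Cd44 by 4.77, 4.39 and 4.12. The cyclin gene Ccnd1 fell by 3.99 in VM tumours. Of leucine zipper partners 2, 1 and 1 of 17 rose and 1, 3 and 2 fell, and of 19 kinase and serum response factor genes 4, 2 and 1 rose and 1, 2 and 2 fell. Hspb1, a small heat shock protein gene, rose by 3.67, 3.64 and 4.05. The leukocyte markers that rose in these tumours are given with the members, and their part in these changes was not tested.

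The Dox effect also differed between lines in some of these lists. Areg and Ereg, which make ligands of the EGF receptor, had a more positive effect in VIM-3039 than in MYC-2983 cells by 1.83 and 1.27, and Areg by 1.21 than in VM-3055 cells. That of Egr3, a relative of Egr1, was more positive by 1.34 in VIM-3039 than in MYC-2983 cells, and the difference of Il11 was −1.27 between those lines.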
